A study of Rattus norvegicus with 102 samples.

Results

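Calcium buffers and sensors are followed here through 8 genes that were taken by their symbols from the gene names in the deposited tables: Calb1, Calb2, Hpca, Hpcal1, Hpcal4, Ncald, Vsnl1 and Ncs1. Each symbol matched 1 row of each table, so the set is 8 of the 26284 genes listed in the Illumina table. All 8 passed the filter on low values (a mean of at least 10). Their identifiers are ENSRNOG00000007456 (Calb1, chromosome 5), ENSRNOG00000016977 (Calb2, chromosome 19), ENSRNOG00000006979 (Hpca, chromosome 5), ENSRNOG00000005492 (Hpcal1, chromosome 6), ENSRNOG00000050983 (Hpcal4, chromosome 5), ENSRNOG00000042978 (Ncald, chromosome 7), ENSRNOG00000005345 (Vsnl1, chromosome 6) and ENSRNOG00000008761 (Ncs1, chromosome 3).

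RNA was measured in the hippocampal subfields CA1, CA3 and dentate gyrus (DG) of 34 male rats of the inbred Fischer 344 strain (spelt Fisher 344 in the labels), with no transgene named, after training in the Morris water maze, a test of spatial memory. The groups were 10 young rats (title suffix Y, 5 to 6 months), 12 aged rats classed unimpaired on the maze (suffix OG) and 12 aged rats classed impaired (suffix OB), all aged rats being 17 to 22 months old. The subfields were dissected by hand, from a slice of dorsal hippocampus in the deposited design text and along the length of the structure in the study's methods. Each rat gave 1 library per subfield, so each table holds 34 libraries of each subfield. Poly-A libraries of all rats were run on an Illumina instrument and again on an Ion Proton, and a further table is titled WT. The Ion Proton and WT tables repeat the measurement in the same rats and add no animals.

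Proteins of this set bind calcium through EF-hands, a helix-loop-helix fold that grips the ion. Calbindin (Calb1) and calretinin (Calb2) are cytosolic buffers that take up calcium entering a neuron and so shape how far and how long the signal spreads. The other members are neuronal calcium sensors: on binding calcium most of them expose a buried lipid tail, move to membranes and act on other proteins there. In the hippocampus calbindin is the classic protein of dentate granule cells and CA1 pyramidal cells and is sparse in CA3 pyramidal cells, calretinin marks a class of interneurons and young granule cells, and hippocalcin (Hpca) is named for its abundance in hippocampal pyramidal cells.

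Library depth ran from 3.25 to 42.8 M reads in the Illumina table (median 10.7), from 4.47 to 21.4 M in the Ion Proton table (median 9.74) and from 3.54 to 20.6 M in the WT table (median 8.07). In 13 libraries, from 11 rats, the marker genes lay nearer to another subfield than to the labelled one in both poly-A tables. These discordant libraries were 9 of CA3 (3 Y, 3 OG, 3 OB), 3 of DG (2 OG, 1 OB) and 1 of CA1 (OG). The rat numbers in the titles form 2 series, 18 rats numbered below 9000 (5 Y, 6 OG, 7 OB) and 16 numbered from 9000 up (5 Y, 6 OG, 5 OB), and 9 of the 16 CA3 libraries from 9000 up were discordant against 0 of 18 below. The series have the sizes that the design text gives for the study's collection sites, but no label ties a rat to a site, so they are called number series here.

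Values are the authors' normalised read counts (reads divided by a size factor of the library). Log2 differences are on the scale of log2(value + 1) and come from limma fitted over all genes that passed the filter. A difference between subfields was called when the Benjamini-Hochberg adjusted p was under 0.05 in the Illumina and in the Ion Proton table with the same direction. In bulk tissue, fewer cells of a type and less RNA per cell cannot be told apart. Levels are compared between libraries for 1 gene and never between genes, because gene lengths were not used.

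Over all 34 rats, Calb1 was lower in CA3 than in CA1 and DG, Hpcal1 was lower in CA1 than in the other subfields, and Ncald was higher in DG than in CA1 and CA3. These calls came to 2 of 8 members between CA1 and CA3, where 14.1% of all genes tested were called. Between CA1 and DG they came to 2 of 8 (background 26.4%), and between CA3 and DG to 3 of 8 (background 27.9%). Set against the background, the counts over 8 members show no excess for CA1 against DG and lie at most 1 gene above it in the other comparisons. The call for CA3 against DG beside Calb1 and Ncald was Hpcal4.

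Of the buffers, Calb1 had a mean of 1140 ± 387 (SD, n = 34) in CA1, with a lowest library at 429, a median of 1292 and a highest at 1665. In CA3 the mean was 763 ± 341, from 306 through a median of 608 to 1585, and in DG it was 1110.1 ± 293, from 553 through 1111 to 1697. The ranges overlapped in all pairs of subfields, and the CA3 libraries reached nearly as high as the highest of CA1. The lowest DG library was discordant. The log2 difference of CA1 from CA3 was 0.63 (SE 0.131, limma adjusted p = 5.86e-05) and that of CA3 from DG was -0.63 (adjusted p = 2.35e-05), with 0.62 (adjusted p = 0.00588) and -0.85 (adjusted p = 3.5e-05) in the Ion Proton table. CA1 and DG could not be ordered (0.00 on the log2 scale, limma adjusted p = 0.978).

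Calb2 had a median of 145 in CA1 (93.9 to 609.6), 189 in CA3 (51.0 to 672) and 131 in DG (68.6 to 825.0). In each subfield a few libraries stood far above the rest, and the groups overlapped nearly throughout. The lowest and the highest CA3 library were both discordant. CA3 lay above DG in the Illumina table by 0.45 (SE 0.149, limma adjusted p = 0.00743) and not past the threshold in the Ion Proton table (0.40, adjusted p = 0.0664), so it was not called. CA1 and CA3 differed by -0.27 (limma adjusted p = 0.145).

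Among the sensors, Hpca, a regulator of the slow afterhyperpolarisation and of glutamate receptor uptake, had a median of 18156 in CA1 (9509 to 37440), 24730 in CA3 (6706 to 48186) and 23798 in DG (9182 to 42035). The CA3 libraries covered the widest range of the 3 subfields, and the subfields overlapped widely. The lowest and the highest DG library were both discordant. No order of the subfields passed the test over all rats: CA1 minus CA3 was -0.04 (limma adjusted p = 0.875), CA1 minus DG -0.20 (adjusted p = 0.227) and CA3 minus DG -0.17 (adjusted p = 0.324). Without the discordant libraries CA1 lay below CA3 by 0.32 in the Illumina table (log2 difference -0.32, limma adjusted p = 0.0402) and by 0.58 in the Ion Proton table (-0.58, adjusted p = 0.00266). All 9 discordant CA3 libraries came from rats numbered from 9000 up, where the order was the opposite (described with the number series), and the markers that set them apart hold Bok, whose level followed Hpca.

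Hpcal1, a hippocalcin-like sensor, had a median of 332 in CA1 (195 to 614), 517 in CA3 (173 to 877) and 507 in DG (250.0 to 896). The CA1 libraries lay mostly in the lower part of the range of the other subfields. The highest libraries of CA3 and of DG were discordant. The log2 difference was -0.45 for CA1 against CA3 (SE 0.107, limma adjusted p = 0.00044) and -0.45 for CA1 against DG (adjusted p = 0.00023), with -0.54 (adjusted p = 0.000684) and -0.51 (adjusted p = 0.000788) in the Ion Proton table. CA3 and DG differed by 0.00 on the log2 scale.

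Ncald (neurocalcin delta, a sensor that binds clathrin and actin components and, in photoreceptors, regulates guanylate cyclase) had a median of 6567 in DG (4764 to 7727), 5230 in CA1 (3574 to 7110) and 4643 in CA3 (3183 to 8015). DG libraries were high and CA3 libraries low, with an overlap at the upper end of CA3. The lowest libraries of DG and of CA3 were discordant. Ncald was lower in CA1 than in DG by a log2 difference of -0.34 (SE 0.0536, limma adjusted p = 8.32e-08; Ion Proton -0.35, adjusted p = 1.01e-05) and in CA3 than in DG by -0.44 (adjusted p = 1.21e-11; Ion Proton -0.46, adjusted p = 9.03e-09). CA1 and CA3, neighbours in that order, differed by 0.11 (limma adjusted p = 0.113).

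Hpcal4, a visinin-like protein enriched in neurons, had a median of 12114 in CA1 (9323 to 14500.1), 10316 in CA3 (6322 to 14323) and 11739 in DG (9093 to 12784). Its difference between CA3 and DG was small and called: -0.12 (SE 0.0488, limma adjusted p = 0.0238) and -0.16 in the Ion Proton table (adjusted p = 0.046). With the rat as a block the Illumina adjusted p was 0.0377 and the Ion Proton table no longer passed. CA1 lay above CA3 by 0.15 in the Illumina table (limma adjusted p = 0.0089) and by 0.07 in the Ion Proton table (adjusted p = 0.554).

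Vsnl1 (visinin-like protein 1, a sensor linked to membrane trafficking of receptors) had medians of 4451 in CA1, 4911 in CA3 and 4453 in DG. Ncs1, which regulates neurotransmitter release and phosphatidylinositol kinases, had medians of 1910.2, 1792 and 1938. Neither had a subfield difference that was called, and CA1 against CA3 gave -0.04 for Vsnl1 (95% CI -0.15 to 0.07) and 0.00 for Ncs1 (95% CI -0.10 to 0.11).

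The near-zero difference of Hpca over all rats was made of opposite orders in the number series. The division into series was examined after the spread in CA3 had been seen. Hpca in CA3 ran from 15375 through a median of 31933 to 48186 in the 18 rats below 9000, and from 6706 through 12006 to 24018 in the 16 rats from 9000 up. In CA3, 17 of the 18 libraries of the lower series lay above the highest library of the other series. In CA1 the means were 17977 ± 5898 against 23542 ± 7127 (SD, n = 18 and 16), and 12772 against 19366 in the Ion Proton table. In DG they were 20789 ± 3987 against 26028 ± 6781, but 18645 against 19232 in the Ion Proton table, so the DG gap was not repeated there.

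Within the same rat, Hpca was lower in CA1 than in CA3 in 18 of 18 rats below 9000 and higher in 15 of 16 rats from 9000 up, with the same counts in the Illumina and Ion Proton tables. The log2 difference of CA1 from CA3 was -0.88 in the lower series (SE 0.115, limma adjusted p = 3.47e-09; Ion Proton -1.24, adjusted p = 1.91e-08) and 0.91 in the upper series (SE 0.165, adjusted p = 0.000169; Ion Proton 0.80, adjusted p = 0.000807). The difference between series, tested as an interaction over all genes, was 1.78 (SE 0.201, limma adjusted p = 4.75e-12; Ion Proton 2.04, adjusted p = 5.08e-11). For CA3 against DG it was -1.70 (limma adjusted p = 1.56e-11; Ion Proton -1.48). The same interaction was called for 13.7% of all genes between CA1 and CA3, for 0.106% between CA1 and DG, and for 16.8% between CA3 and DG. Of the members, 4 of 8, 0 of 8 and 3 of 8 were called. Since Hpca and Calb1 in CA3 prompted the division, nothing is read from these counts against the background.

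Calb1 showed the reverse of Hpca. In CA1 it ran from 1132 to 1665 in the lower series (mean 1438 ± 141) and from 429 to 1583 in the upper (805 ± 282). In CA3 it ran from 306 to 803 (513 ± 138) in the lower series and from 510 to 1585 (1043 ± 274) in the upper. More Calb1 in CA1 than in CA3 was found in 18 of 18 rats below 9000 and in 3 of 16 from 9000 up by Illumina, and in 17 of 18 and 3 of 16 by Ion Proton. The log2 difference of CA1 from CA3 was 1.53 in the lower series (SE 0.0978, limma adjusted p = 5.16e-20; Ion Proton 1.63) and -0.39 in the upper (adjusted p = 0.0528), and the difference between series was -1.92 (adjusted p = 2.87e-16; Ion Proton -2.15). CA3 lay below DG in 18 of 18 rats of the lower series in both poly-A tables. In the upper series it lay above DG in 11 of 16 rats in the Illumina table and in 8 of 16 in the Ion Proton table, so no order held there, and the difference between series passed as well (limma adjusted p = 3.79e-12). Calb1 in CA1 lay above DG in 13 of 18 rats of the lower series (Ion Proton 11 of 18). It lay below DG in 13 of 16 rats of the upper series (Ion Proton 14 of 16), and this difference between series was not called.

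Hpcal4 moved with Calb1. Its CA3 mean was 9270 ± 1089 in the lower series and 12548 ± 1606 in the upper, while CA1 went from 12503 ± 892 to 11161 ± 1395. CA1 exceeded CA3 in 18 of 18 rats below 9000 and in 5 of 16 from 9000 up (Ion Proton 16 of 18 and 4 of 16), and the difference between series was -0.61 (limma adjusted p = 3.49e-11; Ion Proton -0.54). For CA3 against DG it was 0.53 (limma adjusted p = 1.98e-09; Ion Proton 0.66).

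Hpcal1 had its difference between CA1 and CA3 mainly in the upper series, at -0.83 (limma adjusted p = 1.83e-05) against -0.10 in the lower (adjusted p = 0.574), and the interaction was -0.73 (adjusted p = 0.00217; Ion Proton -0.67, adjusted p = 0.0382). Hpcal1 in CA1 against DG was not called in the lower series (-0.34, limma adjusted p = 0.0472 in the Illumina table), where the Ion Proton table did not pass. Without the discordant libraries the interaction for CA1 against CA3 was -0.71, and the Ion Proton table no longer passed (limma adjusted p = 0.0938). Ncs1 in CA3 had a median of 1612 in the lower and 2208 in the upper series in the Illumina table, but the interaction of -0.34 (limma adjusted p = 0.000444) was -0.08 in the Ion Proton table (adjusted p = 0.809) and was not called.

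Ncald was lower in CA1 and in CA3 than in DG in both series. CA1 against DG gave -0.37 in the lower and -0.31 in the upper series, CA3 against DG gave -0.50 and -0.38, and all 4 were called in both poly-A tables. The differences between series for these were 0.06 (limma adjusted p = 0.862) and 0.12 (adjusted p = 0.384). Within the same rat (Illumina), Ncald in CA1 lay below DG in 16 of 18 lower-series and 11 of 16 upper-series rats. Its CA3 level lay below DG in 18 of 18 and 12 of 16. The order of CA1 and CA3 was not kept: CA1 lay above CA3 in 15 of 18 rats of the lower series and in 8 of 16 of the upper. Calb2 had no called difference between series. Its CA1 level lay below CA3 in the same rat in 16 of 18 rats of the lower series, where the difference was called (-0.39, limma adjusted p = 0.0136), and in 12 of 16 of the upper, where it was not. For Vsnl1 the difference between series for CA1 against CA3 passed in the Illumina table alone (0.26, limma adjusted p = 0.048).

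**Figure D1:**
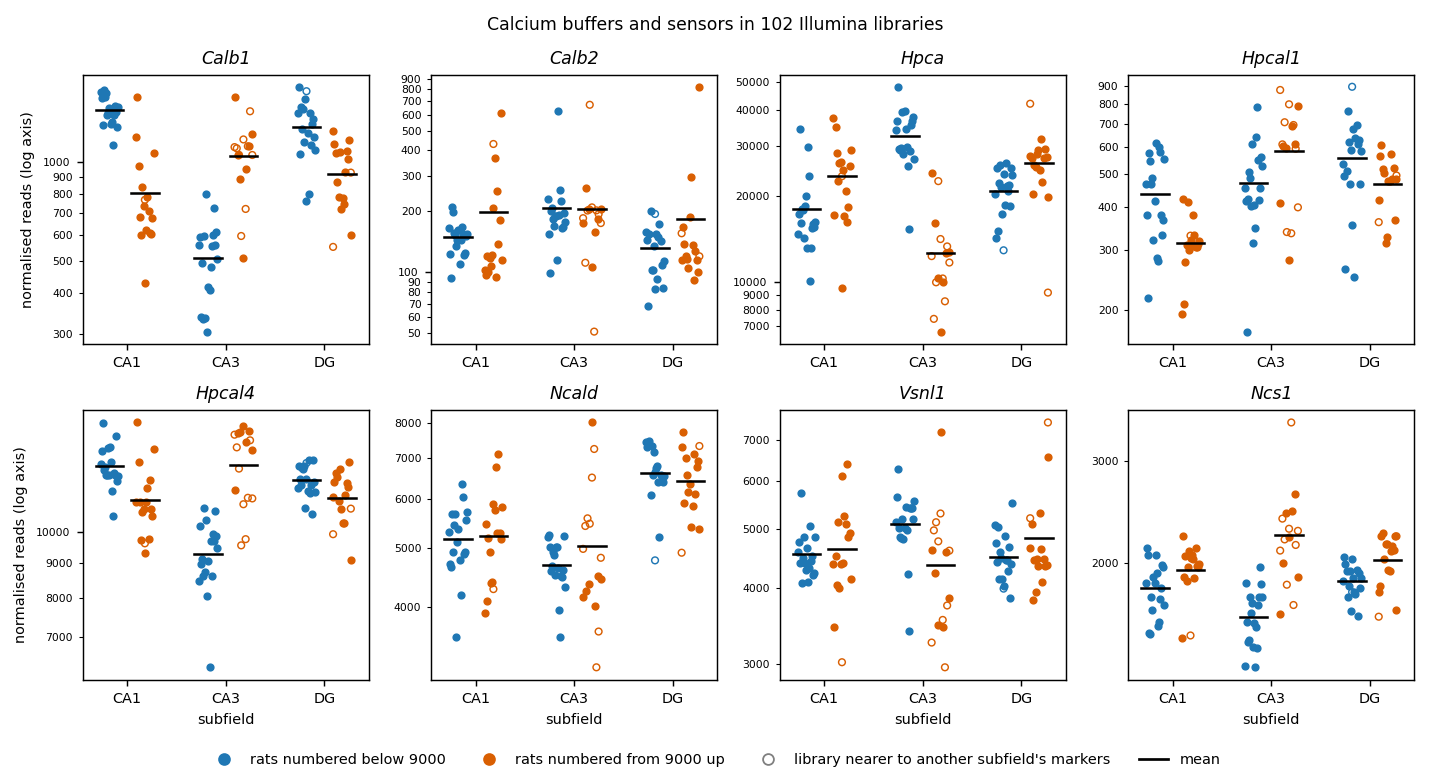
Normalised read counts of each member in every Illumina library by subfield, with the 18 rats numbered below 9000 and the 16 from 9000 up in separate colours (log axis, bars at the mean, open circles for discordant libraries). Hpca in CA3 separates the series almost fully (17 of 18 lower-series libraries above all of the others), Calb1 and Hpcal4 run the other way, and the mean of Ncald is highest in DG in both.

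**Figure D2:**
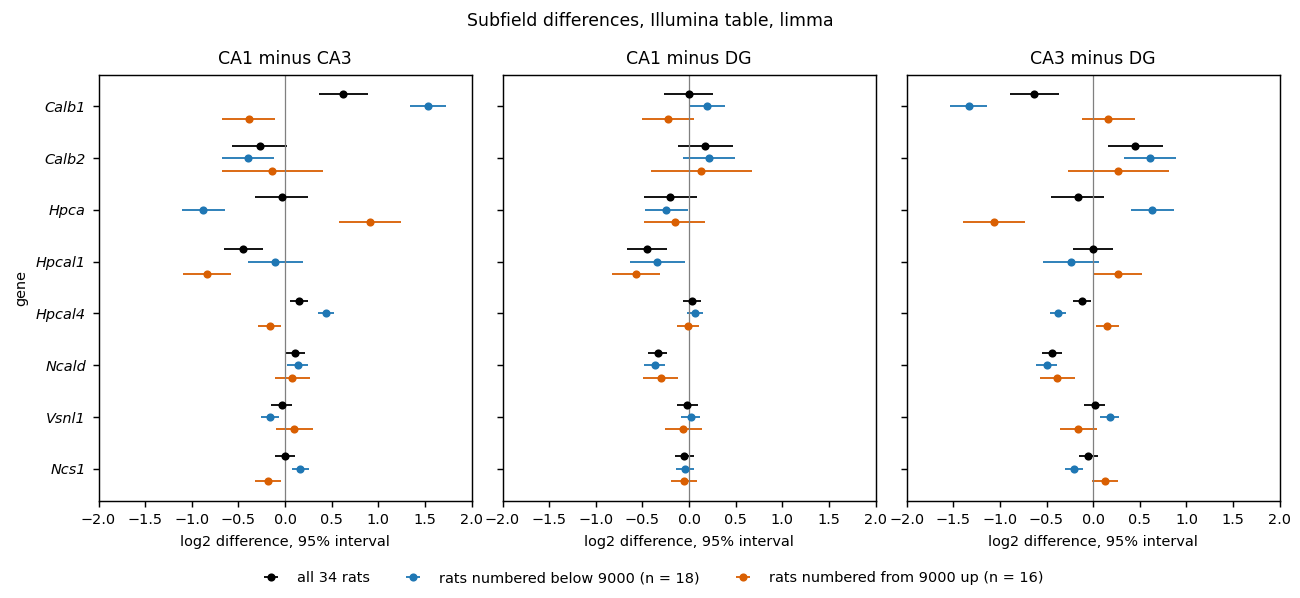
Log2 differences between subfields for the 8 members in the Illumina table, with 95% confidence intervals, over all 34 rats (black), the 18 rats numbered below 9000 (blue) and the 16 from 9000 up (orange). For CA1 minus CA3, Calb1 lies at 0.63 over all rats and at 1.53 and -0.39 in the series, Hpca at -0.04 and at -0.88 and 0.91, and the intervals of Ncald overlap in each panel.

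Marker genes of the subfields moved with the series too. In libraries labelled CA3, the summed level of the CA3 pyramidal list ran from 17981 to 23943 in the lower series (median 19521) and from 3655 to 19339 in the upper (median 12879). The CA1 pyramidal list had a median of 4251 in the lower and 7993 in the upper series there, and the dentate granule list 2012 and 2367, with up to 13447 in the upper. In libraries labelled CA1 the CA1 list fell from a median of 16897 to 13485. Leaving out the discordant libraries, the upper series still gave 0.86 for Hpca, -0.38 for Calb1 and -0.27 for Hpcal4 (CA1 against CA3). The part that the marker differences have in the members' pattern was not tested. Of the 13 discordant libraries 12 came from the upper series, and in 2 of its rats those labelled CA3 and DG were both discordant. Whether tissue or libraries were exchanged or mixed between subfields was not tested, so values of the upper series are those of libraries labelled CA1, CA3 and DG.

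The comparison of aged with young rats asked whether calcium handling genes move with age. None of the 8 members passed in any subfield, either with an adjusted p under 0.05 in the Illumina table or by the study's own rule, which asks for an unadjusted p under 0.01 in the Illumina table and, for the Ion Proton table, a one-sided p under 0.05 with the same sign. Of all genes, the adjusted threshold was passed in CA1 by 0.338%, in CA3 by 0% and in DG by 0.3%, and the study's rule in that order by 0.832%, 0.393% and 1.07%. The members' log2 differences lay between -0.19 and 0.11 in CA1 (lowest unadjusted limma p = 0.289). In CA3 they lay between -0.29 and 0.17 (lowest p = 0.131) and in DG between -0.20 and 0.09 (lowest p = 0.288). Their 95% intervals reached from -0.56 to 0.43, from -0.75 to 0.56 and from -0.66 to 0.39. The count of 0 in CA3 over all genes stood beside 471 genes at an unadjusted p under 0.05.

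Unimpaired aged rats against young rats gave 0 of 8 members by either rule in each subfield, with a background by the adjusted p of 0% in CA1 and CA3 alike and 0.05% in DG, and by the study's rule of 0.607%, 0.386% and 0.621%. Unadjusted p-values under 0.05 were found for 690 genes in CA1 and 470 in CA3. Log2 differences of the members in CA1 lay between -0.23 and 0.10, those in CA3 between -0.29 and 0.18 and those in DG between -0.35 and 0.05. In the Ion Proton table all 8 members were lower in CA1, from -0.39 to -0.02. There 2 had an unadjusted limma p under 0.05, Ncald (-0.30, p = 0.0145) and Vsnl1 (-0.38, p = 0.0127). Low Ion Proton values in CA1 of unimpaired rats are described with the class difference of Ncald, and their part here was not tested.

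Impaired aged rats against young rats gave 1 member by the study's rule, Hpca in CA1, and none by the adjusted p. Here 0.0212% of all genes in CA1, 0% in CA3 (350 genes at an unadjusted p under 0.05) and 0.0998% in DG passed the adjusted threshold, and 1.21%, 0.274% and 0.948% the study's rule. The Hpca difference was -0.48 (SE 0.166, 95% CI -0.82 to -0.13, limma p = 0.0083, adjusted p = 0.413), with -0.46 in the Ion Proton table (p = 0.0221) and -0.47 in the WT table. It was not called within either number series (-0.41 and -0.51) and was called in 10 of the 22 fits that left out 1 rat.

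Between the maze classes of aged rats, Hpca was lower and Ncald higher in CA1 of impaired rats. Both passed the study's rule, which 0.62% of all genes passed in CA1, and neither passed the adjusted p, which 0% of genes passed (811 genes had an unadjusted p under 0.05). The study picked hippocalcin as a gene related to cognition on these same rats, so its direction is not independent evidence.

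In CA1 of young rats Hpca ran from 14702 through a median of 18156 to 37440. In unimpaired rats it ran from 13133 through 23448 to 34872, and in impaired rats from 9509 through 16017 to 24597. The impaired group was the lowest of the 3, with 11 of 12 rats below the unimpaired median, and its range overlapped both others. The means were 22386 ± 7532 (SD, n = 10), 23848 ± 6660 (n = 12) and 15851 ± 4134 (n = 12).

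The log2 difference of Hpca between impaired and unimpaired rats was -0.58 (SE 0.155, 95% CI -0.90 to -0.26, limma p = 0.000888, adjusted p = 0.523). In the Ion Proton table it was -0.44 (SE 0.215, limma one-sided p = 0.0262), with means of 17786 ± 6948 and 12510 ± 4042, and in the WT table -0.54 (p = 0.00126). Within the number series it was -0.47 below 9000 (Illumina limma p = 0.0171, Ion Proton -0.14, p = 0.582) and -0.65 from 9000 up (p = 0.00842), where it was called. It held in 23 of 24 fits that left out 1 rat. Without 1 rat, numbered from 9000 up, the one-sided Ion Proton p was 0.0519.

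Ncald in CA1 ran from 3905 through a median of 5228 to 7110 in young rats, from 3574 through 4519 to 6041 in unimpaired rats and from 4873 through 5669 to 6778 in impaired rats. All 12 impaired rats lay above the unimpaired median, in each of the 3 tables, and 7 unimpaired rats lay below the lowest impaired rat in the Illumina table. The young range overlapped both aged groups. The means were 5243 ± 836 in young, 4694 ± 691 in unimpaired and 5644 ± 542 in impaired rats. Against young rats, impaired rats differed by 0.12 (limma p = 0.133) and by 0.08 in the Ion Proton table (p = 0.377). Unimpaired rats differed from young rats by -0.16 (limma p = 0.0847) and by -0.30 in the Ion Proton table (p = 0.0145).

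The Ncald difference between impaired and unimpaired rats was 0.27 (SE 0.0704, 95% CI 0.13 to 0.42, limma p = 0.000621, adjusted p = 0.523), 0.38 in the Ion Proton table (p = 0.00133; means 3655 ± 785 and 4678 ± 520) and 0.27 in the WT table (p = 0.000948). It was called in 24 of 24 fits that left out 1 rat. Within the number series it was 0.20 below 9000 (limma p = 0.0739, not called) and 0.36 from 9000 up (p = 0.000624, called). In the Ion Proton table some CA1 values of the 6 unimpaired rats below 9000 were low. The lowest was 2358 for Ncald (median 3316), 452 for Ncs1 (median 1648) and 4326 for Hpcal4 (median 9131). In the Illumina table the lowest of this group were 3574, 1560 and 11479. The leave-out fits dropped 1 rat at a time, and the part of low Ion Proton libraries in the Ncald difference was not tested.

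**Figure D3:**
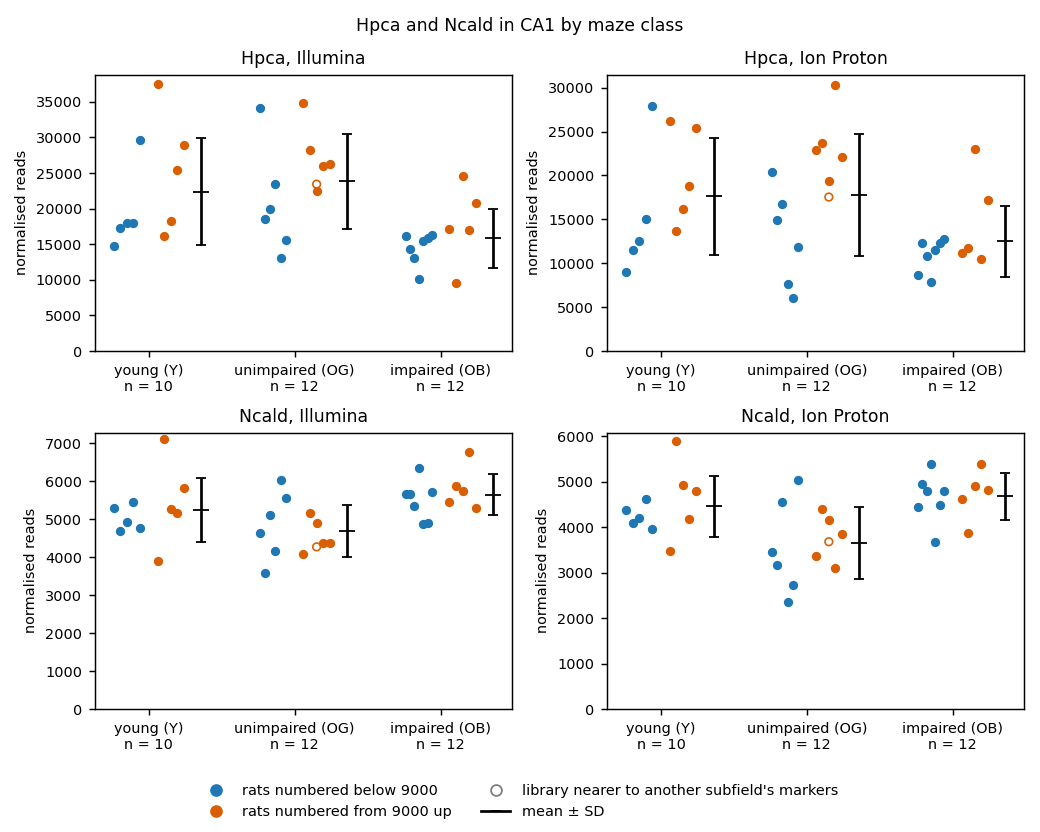
Hpca and Ncald in every CA1 library of the young (Y), unimpaired (OG) and impaired (OB) rats, as normalised read counts in the Illumina and Ion Proton tables, with the mean and SD of each group and colours for the number series. In the Illumina panels the impaired rats sit lowest for Hpca (mean 15851) and highest for Ncald (mean 5644).

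Other sensors in CA1 stopped short of the rule in the limma fit. Hpcal1 differed by 0.41 (limma p = 0.0115; Ion Proton 0.39, p = 0.0809), and it passed the rule with DESeq2, the tool that the study used (Illumina p = 0.00835 by DESeq2). Vsnl1 differed by 0.18 (limma p = 0.0283; Ion Proton 0.30, p = 0.0494). Calb1 gave 0.10 (95% CI -0.34 to 0.54), Calb2 0.24 (-0.20 to 0.68), Hpcal4 0.02 (-0.13 to 0.18) and Ncs1 0.01 (-0.13 to 0.14). Over the 8 members 7 differences were above 0 and the median was 0.14, beside a median of 0.00 over all genes tested.

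In CA3 and DG no member passed either rule between the maze classes, where 0% and 0% of all genes passed the adjusted p (199 and 539 genes at an unadjusted p under 0.05) and 0.0211% and 0.121% the study's rule. Log2 differences lay between -0.26 and 0.21 for CA3 and between -0.13 and 0.28 for DG. Whether the class difference itself varied between subfields was tested as an interaction, and likewise the age difference. No gene passed in any of the 6 interactions, so the background was 0% for each pair of subfields, for age and for class alike. At an unadjusted p under 0.05 stood 274 (CA1 and CA3), 50 (CA1 and DG) and 150 (CA3 and DG) genes for age, and 647, 494 and 261 in the same order for class. The Ncald class difference was larger in CA1 than in CA3 by 0.34 (limma p = 0.00742, adjusted p = 0.959) and than in DG by 0.35 (p = 0.0056, adjusted p = 0.999). For Hpca the difference of CA1 from DG was -0.74 (limma p = 0.0365, adjusted p = 0.999).

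**Figure D4:**
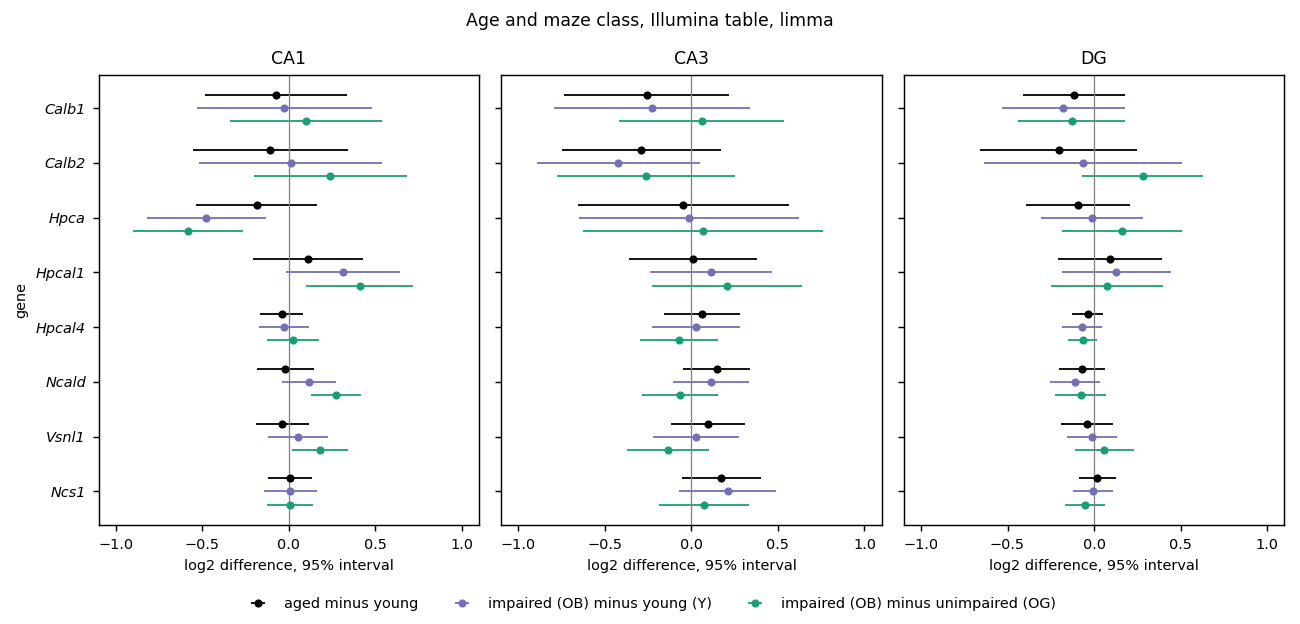
Log2 differences with 95% confidence intervals of the 8 members for aged minus young, impaired minus young and impaired minus unimpaired rats in each subfield (Illumina table). The intervals of Hpca (-0.90 to -0.26) and Ncald (0.13 to 0.42) exclude 0 for impaired against unimpaired rats in CA1, as do those of Hpcal1 and Vsnl1, which missed the rule in this fit, and those of the members for aged against young rats span 0 in each subfield.

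The marker lists of the other cells that a CA1 dissection can hold gave 0 called genes between the maze classes in each of 13 lists, where 0.62% of all genes passed, so a count of 0 is near the background for lists this short. The CA3 pyramidal list had 6 of 7 tested genes lower in impaired rats (median -0.28, 3 at an unadjusted p under 0.05), and its summed level ran from 4587 to 10290 in unimpaired and from 3061 to 8938 in impaired rats. The dentate granule list had 8 of 8 tested genes higher (median 0.26), with sums from 1723 to 7423 and from 1916 to 9094. The CA1 pyramidal list had 3 of 7 higher (median -0.01, sums from 3093 to 27106 and from 10320 to 17831), and the microglial and oligodendrocyte lists each had 6 of 6 genes lower (medians -0.10 and -0.13). Single CA1 libraries stood apart, with striatal markers at up to 20651 in unimpaired rats (median 1976) and choroid plexus markers at up to 123344 in unimpaired and 148630 in impaired rats (medians 212 and 247). The part of these shifts in the Hpca and Ncald differences was not tested.

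Calb2 was high in a few libraries of each subfield. The highest young library stood at 609.6 in CA1, at 625.8 in CA3 and at 825.0 in DG, each in a different rat. In the same libraries the summed level of thalamus and habenula markers was 2178, 1284 and 2790, beside medians of 872, 698 and 571 over the young libraries. Over 34 libraries per subfield, Pearson's r of Calb2 with that sum was 0.76 in CA1, 0.36 in CA3 and 0.87 in DG, as a description of libraries that share depth and dissection. Single libraries went the other way. The highest CA1 sum was 4242, in an impaired rat, and no impaired CA1 library exceeded 368.6 for Calb2. The highest young CA3 sum, 1910, was in another library than that with Calb2 at 625.8. Neurons of the midline thalamus and habenula are known for calretinin, and the part that such tissue has in the Calb2 level was not tested.

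**Figure D5:**
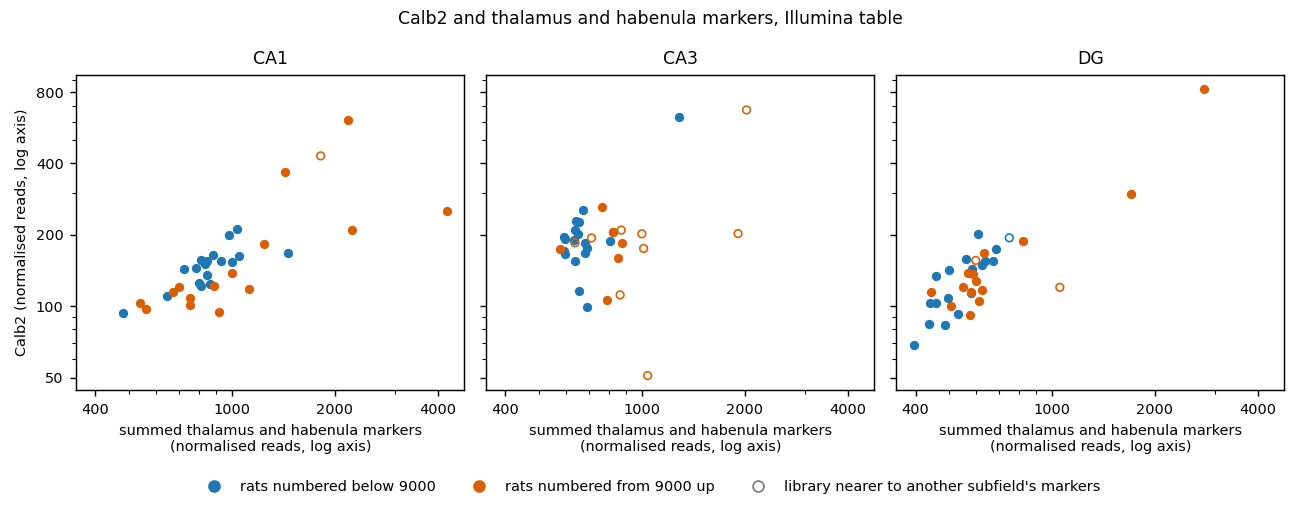
Calb2 (normalised read count) against the summed level of thalamus and habenula markers in every Illumina library, by subfield (log axes, colours for the number series, open circles for discordant libraries). The libraries with the highest Calb2 in DG (825.0) and in CA1 (609.6) have marker sums of 2790 and 2178. The highest marker sum in CA1 (4242) is in an impaired rat, and no impaired CA1 library exceeds 368.6 for Calb2.

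Among other EF-hand proteins, 24 of 26 listed genes were tested, and they divided between subfields in both directions. CA1 exceeded CA3 in 5 and fell below it in 3, CA1 against DG gave 5 and 5, and CA3 against DG gave 7 and 6, where 14.1%, 26.4% and 27.9% of all genes were called. The medians were 0.09, 0.00 and 0.01, beside 0.01, 0.00 and 0.01 over all genes. Secretagogin (Scgn), a sensor of secretory cells, was highest in CA1, by 1.20 over CA3 and 1.98 over DG, and S100a10, a plasminogen and ion channel adaptor that has lost calcium binding, lay 1.46 higher in CA1 than in DG. Necab3 was higher in CA1 than in CA3 by 0.85 and lower in CA3 than in DG by 0.90 (-0.90), Necab1 was lower in CA1 than in DG (-0.89), and Calml4, a calmodulin-like protein, was lower in CA3 than in DG (-1.06).

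Necab3 was the only gene of this list to pass the study's rule between the maze classes in CA1, where 0.62% of all genes passed. Its difference was 0.55 (SE 0.119, limma p = 9.98e-05, adjusted p = 0.308; Ion Proton 0.83, p = 0.000368). Necab3 too differed by number series, at -1.22 for CA1 against CA3 (limma adjusted p = 1.52e-05), in the direction of Calb1. Cabp7, a calcium-binding protein of the Golgi, went in the direction of Hpca, at 1.42 (limma adjusted p = 7.39e-07; Ion Proton 1.67). This interaction was called for 13.7% of all genes, so nothing is read from single genes of the list that share it.

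Proteins that hold calmodulin gave 1 call of 4 for CA1 against CA3 (Gap43, a growth cone protein, -0.34), where 14.1% of all genes were called. Pcp4 was lower in CA1 than in DG by 0.42 (-0.42) and Pcp4l1 higher by 0.61, where 26.4% of all genes were called. Known partners of the sensors (7 genes) gave 3 calls upward for CA1 against CA3: the calcium-stimulated cyclases Adcy1 at 1.25 and Adcy8 at 0.64, and the postsynaptic scaffold Dlg4 at 0.27. For CA3 against DG 4 were lower and 1 higher, led by Adcy1 at -1.73. The shares of all genes called were 14.1% and 27.9%, and with 7 genes nothing is read from the counts. Adcy8 shared the reversal by number series, with a difference of -1.63 (limma adjusted p = 2.38e-12; Ion Proton -1.68), an interaction called for 13.7% of all genes. Of these partners and calmodulin-holding proteins none was called between the maze classes in CA1, where 0.62% of all genes passed.

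The members differed in which genes had the most similar pattern over all Illumina libraries of the 3 subfields (Pearson's r on the log2 scale, a description of libraries that share subfield, rat and depth). Calb1 was most like Cnih3 (0.86; Ion Proton 0.68), Myo5b (0.85; 0.82) and Syt16 (0.85; 0.75). Hpca was most like Tmem54 (0.94; 0.57), Bok (0.93; 0.87) and Arpc5 (0.93; 0.53), and Bok is in the CA3 marker list used above. Hpcal1 was most like Tpd52l1 (0.83; 0.78) and Ncald like Tiam2 (0.82; 0.60). Hpcal4 was most like Chd3 (0.88; 0.66), Fam81a (0.81; 0.34) and Kcnh3 (0.81; 0.45). Ncs1 was most like Trak1 (0.88; 0.64), Epb41l1 (0.85; 0.16) and Snx27 (0.81; -0.06). For Vsnl1 the value of Tmem178a (0.71; 0.08) was lower in the Ion Proton table, and those of Glrb (0.70; 0.81) and Zc2hc1a (0.67; 0.81) were higher.

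Among the members, Calb1 and Hpcal4 went together within CA1 (r = 0.75 over 34 Illumina libraries) and within CA3 (r = 0.76), with 0.53 and 0.45 in the Ion Proton table. Within DG the value of 0.58 was -0.03 in the Ion Proton table. Hpca went against Calb1 (-0.66; Ion Proton -0.72) and Hpcal4 (-0.72; -0.60) within CA3. Within CA1, Hpca went against Hpcal1 (-0.74; -0.38), and its correlation with Ncald of -0.57 was -0.01 in the Ion Proton table. These values describe libraries that share number series and dissection.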

How the data were processed

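RNA of CA1, CA3 and DG from 34 rats was analysed in 3 deposited tables of 102 libraries each. The deposited values are a signal, read counts that the authors divided by a size factor of each library (DESeq2 1.16.1). Per the labels, the tools were bcl2fastq 2.17 and cutadapt 1.8.3, with reads aligned with STAR 2.5 to rn5 and counted with featureCounts 1.4.4, and the Ion Proton reads were aligned with TopHat2 and Bowtie2 by the study's methods. The library type of the WT table and the strand setting of the counting were not given in the sources used here, so genes that overlap a neighbour can share its reads. Dividing by the smallest step of each column gave whole reads for 100.0% of values above 0 (tolerance 0.1), which gave the depths and the input of the count tests.

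Log2(value + 1) was fitted with limma 3.58.1 in R 4.3.3 (trend on the mean, genes with a mean of at least 10), over all libraries for the subfields, within a subfield for age and maze class, and as interactions for differences between subfields. P-values were adjusted over all genes tested. The scripts were tested on simulated data. The members and lists were chosen with earlier results of these data known. All 8 members are named in every comparison, the other lists are given by counts with up to 5 called genes, and the 3 genes most like a member are those of highest Pearson's r. Alternatives were edgeR 4.0.16 and DESeq2 1.42.0 on recovered reads, another pseudocount (0.1), no filter, quantile normalisation, the WT table, no discordant libraries, a number series as a term or alone, leaving out each rat, and the rat as a block. Fits of the subfields within a number series and their interaction were added after the data had been seen.

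Libraries of 1 rat come from the same animal and so are paired by design. The deviations of a rat's libraries from their group means had a median correlation of 0.0866 for CA1 and CA3, 0.189 for CA1 and DG and -0.0324 for CA3 and DG over 34 rats. Libraries of a group come from separate rats. No protein or genome sequence is printed.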

Additional observations from a re-analysis of the deposited data

Results flagged for a closer look

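In groups of 10 or fewer libraries the highest or lowest value was compared with the rest by Dixon's ratio, in 48 groups of young rats. Groups with a value set apart numbered 9. The groups share rats and libraries between members and tables, so this count cannot be set against a rate for independent groups. Calb2 was high in 1 young rat in CA1 at 609.6 (425.9 in the Ion Proton table), in another in CA3 at 625.8 (444.2) and in a further rat in DG at 825.0 (534.2), and each stood apart in both poly-A tables. The next highest young libraries were at 199, 230 and 201 in the Illumina table. In the same DG library Hpcal4 was the lowest of the young at 9093 and Vsnl1 the highest at 6575. Vsnl1 in CA1 was highest at 6394, in a rat that gave none of these libraries. The CA3 library with high Calb2 also held a summed choroid plexus marker level of 12423. The part of neighbouring tissue in these values was not tested.

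Subfield differences that themselves differed between the rats numbered below 9000 and from 9000 up, by the limma interaction, were Hpca at 1.78 (upper minus lower series, CA1 against CA3) and -1.70 (CA3 against DG), Calb1 at -1.92 and 1.499, Hpcal4 at -0.61 and 0.53, and Hpcal1 at -0.73 for CA1 against CA3 alone. No label says what else differed between the series, and the part of the subfield markers that moved with them was not tested.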

How the results depend on the processing

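Of the members' values under an alternative, 1351 kept their sign and their side of the threshold, 11 lost and 9 gained a call, and 107 that passed no threshold took the other sign, at up to 0.27 on the log2 scale. Values that were called on either side and turned sign numbered 10, all from fits within a number series. Hpcal4 for CA1 against CA3, past the threshold in the Illumina table alone, was -0.17 in rats from 9000 up. Of 120 member differences, 25 had the other sign in the Ion Proton table and 16 in the WT table, with Illumina values of up to 0.21 and 0.11 in size. In rats from 9000 up, CA1 against CA3 was -0.39 for Calb1 and 0.91 for Hpca, and CA3 against DG was 0.16 for Calb1 and 0.15 for Hpcal4. In those rats without the discordant libraries the values were -0.38, 0.86 and -0.27 for Calb1, Hpca and Hpcal4 (CA1 against CA3), and 0.11 and 0.26 for Calb1 and Hpcal4 (CA3 against DG). In rats below 9000 Hpca gave 0.63 for CA3 against DG. The count of members called went from 2 to 4 for CA1 against CA3 and from 2 to 1 for CA1 against DG in rats below 9000, where 21.4% and 15.4% of all genes were called. For impaired against young rats in CA1 it went from 1 to 0 within each series (1.56% of all genes passed below 9000 and 0.204% from 9000 up) and ran from 0 to 1 when each rat was left out. For impaired against unimpaired rats in CA1 it went from 2 to 0 in rats below 9000, where 0.227% of all genes passed. These fits have fewer rats, and the cause was not tested further.

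The small Hpcal4 difference of CA3 from DG was lost with no filter, with quantile normalisation, with DESeq2 and with the rat as a block (log2 difference -0.12, adjusted p = 0.0377 by limma in the Illumina table). The replicate block changed no other call, and the members called under it numbered 2, 2 and 2 for the subfield comparisons, where 15.8%, 29.2% and 30.8% of all genes were called. DESeq2 added Hpcal1 between the maze classes in CA1 (0.41). Calb2, at 51.0 to 825.0 normalised reads per library, rests on few reads in some libraries.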
